A study of Mus musculus with 6 samples.

Results

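Promoter flanks, taken here as the stretches from 1 to 3 kb on either side of an annotated transcription start site, were examined in the authors' deposited table of differential ATAC-seq peaks from mouse embryonic stem cells. ATAC-seq uses the Tn5 transposase to cut and tag open DNA, so a peak marks accessible chromatin. A peak was counted as a flank peak when the deposited ChIPseeker annotation placed it 1 to 2 kb or 2 to 3 kb from a start site. Peaks on distal chromosome 14, from about 75.1 Mb (mm10) onward, were left out, which removed 70 flank peaks, 55 of them gained. Of 60705 listed peaks outside that segment, 3650 were flank peaks (6.01%). They were assigned to 3190 genes, of which 2797 had 1 flank peak and 393 had 2 or more, up to 5. The 1 to 2 kb class held 1759 peaks and the 2 to 3 kb class 1891, and 1749 lay upstream of their assigned start against 1901 downstream. The rule used location, not accessibility.

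The cells were E14 embryonic stem cells carrying the Nkx2-5-EmGFP transgene, either control (genotype WT in the labels) or Lmna knockout, with 3 libraries in each group. Both lines grew with leukemia inhibitory factor and serum on mitomycin-treated mouse embryonic fibroblast feeders, which the protocol reduced by preplating before collection. Nothing in the labels tells how the knockout was made or whether libraries of 1 group stem from separate cultures or clones. The spread behind the deposited p-values may therefore be technical. The deposited values are group means, so no value per library is shown and the depth per library is unknown. Values are log2 concentrations, that is log2 of the mean normalised read count in a peak, and log2 folds, in which a positive value means more accessible chromatin in the knockout.

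As a check of the labels, the strongest change at Lmna in the authors' deposited table was at chr3:88492472-88493370, where the log2 concentration was 6.27 in control and 2.00 in knockout cells (log2 fold -4.27, FDR 4.44e-20). No Lmna peak lay in a flank. Of 28 genes of naive pluripotency, 25 had a listed core promoter peak, meaning one within 1 kb of a start. Their control log2 concentrations ran from 3.38 to 7.18 (median 6.17), and 11 were gained and 0 lost at the deposited FDR. Of all core promoter peaks, 11.7% were gained and 0.998% lost. Of core peaks with a mean log2 concentration of 6 or more, 17.7% were gained. Of 20 fibroblast genes that could mark remaining feeders, 8 had a listed core promoter peak. Control log2 concentrations there ran from 3.50 to 5.98 (median 5.50) and knockout ones from 2.71 to 6.27 (median 5.43). At the deposited FDR, 0 of them were gained and 0 lost. Promoters open in many cells regardless of type, so these levels do not measure how many feeder cells were present, and the part of feeder cells in the results was not tested.

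A promoter's core holds the start site and the general transcription machinery. The flanks around it carry nucleosomes at most genes, and where they are open they often hold proximal enhancers, alternative start sites or, for short genes, the region past the 3′ end. Lamins A and C, the products of Lmna, form part of the nuclear lamina, a protein meshwork that contacts largely inactive chromatin at the nuclear edge. In naive embryonic stem cells the transcription factors of the pluripotency network, among them Esrrb, bind both cores and nearby enhancers.

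Some flank peaks cover a start site of a second gene, and the sequences below show what such a start looks like in 3 peaks that gained accessibility. Sequences are RefSeq promoter windows of GRCm38.p6, the assembly of mm10, from 250 bases before to 50 bases after the start, 300 bases each, since the bases under the peaks themselves were not used here. Of the 3650 flank peaks, 38 held the start of a window in the table, and of these 6 were gained, 0 lost and 32 not called in the deposited table, close to the 13.3% gained and 2.30% lost over all flank peaks and the 11.8% and 2.43% over all listed peaks. Capitals mark matches, on either strand, to motif letters given after the sequences. Gm17089 starts on the minus strand (chr6:134248761-134249060) inside a gained peak assigned to Etv6, an ETS-family repressor. Gm30543 starts on the plus strand (chr7:27329560-27329859) inside a gained peak assigned to Ltbp4, a matrix protein that binds latent TGF-beta. Gm29695 starts on the plus strand (chr1:132200836-132201135) inside a gained peak assigned to the microRNA gene Mir135b.
Gm17089: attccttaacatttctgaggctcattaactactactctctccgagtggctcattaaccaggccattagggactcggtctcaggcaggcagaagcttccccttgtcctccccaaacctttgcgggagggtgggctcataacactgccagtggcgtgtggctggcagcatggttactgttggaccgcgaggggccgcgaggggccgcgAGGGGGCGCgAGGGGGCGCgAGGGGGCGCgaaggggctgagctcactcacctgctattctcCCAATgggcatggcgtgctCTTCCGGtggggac
Gm30543: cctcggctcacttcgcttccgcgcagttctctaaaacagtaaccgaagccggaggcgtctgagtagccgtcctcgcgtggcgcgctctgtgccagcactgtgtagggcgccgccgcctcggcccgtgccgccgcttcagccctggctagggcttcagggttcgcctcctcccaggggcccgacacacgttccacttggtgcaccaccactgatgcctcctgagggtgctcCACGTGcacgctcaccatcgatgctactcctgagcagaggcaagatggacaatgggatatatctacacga
Gm29695: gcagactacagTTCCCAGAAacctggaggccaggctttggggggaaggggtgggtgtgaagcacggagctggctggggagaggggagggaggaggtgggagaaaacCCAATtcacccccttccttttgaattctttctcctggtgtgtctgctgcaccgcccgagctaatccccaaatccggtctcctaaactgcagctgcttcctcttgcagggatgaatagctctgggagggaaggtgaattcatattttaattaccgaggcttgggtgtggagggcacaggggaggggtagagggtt
The window of Gm17089 holds 3 copies of the CTCF core in a row, a CCAAT box and an ETS site; that of Gm30543 holds an E-box, and that of Gm29695 a STAT site and a CCAAT box. In the deposited table the Etv6 flank peak had log2 concentrations of 4.65 in control and 5.53 in knockout cells (log2 fold 0.88, FDR 0.0362). The Ltbp4 flank peak had deposited values of 6.32 and 6.88 (log2 fold 0.56, FDR 0.0325), and the Mir135b flank peak 5.66 and 6.41 (log2 fold 0.75, FDR 0.00895).

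The next pair shows core promoters of genes described below, Adap1, minus strand (chr5:139325415-139325714), and Mat2a, minus strand (chr6:72439507-72439806). The flank peaks of these genes, assigned to other starts, changed in opposite ways.
Adap1: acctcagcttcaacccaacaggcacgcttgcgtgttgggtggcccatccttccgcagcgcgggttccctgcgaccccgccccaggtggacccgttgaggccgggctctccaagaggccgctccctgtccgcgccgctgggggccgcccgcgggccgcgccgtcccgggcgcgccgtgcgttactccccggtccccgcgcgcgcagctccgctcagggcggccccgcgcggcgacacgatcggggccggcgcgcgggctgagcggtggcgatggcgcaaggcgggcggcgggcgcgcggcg
Mat2a: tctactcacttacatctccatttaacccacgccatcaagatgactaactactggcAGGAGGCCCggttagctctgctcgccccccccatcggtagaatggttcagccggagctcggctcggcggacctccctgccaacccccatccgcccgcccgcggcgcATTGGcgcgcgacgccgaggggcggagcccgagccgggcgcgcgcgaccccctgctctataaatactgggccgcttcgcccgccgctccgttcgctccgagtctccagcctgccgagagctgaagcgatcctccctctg
Both are CpG-rich, with observed over expected CpG ratios of 1.09 and 1.05, and the Mat2a window holds a CTCF core and a CCAAT box. Both cores gained accessibility in the deposited table, whereas the flank peak rose at Adap1 and fell at Mat2a, as described below. Neither flank peak lies beside the printed window. The start assigned to it lies 22613 bases into the gene at Adap1 and 4565 bases in at Mat2a.

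The 15 motifs searched on both strands, with the share of the 32851 RefSeq windows that hold each, were as follows. The CTCF core AGGNGGCNC was in 8.28%, the E-box CACGTG in 7.15%, the ETS site CCGGAAG in 8.86%, the CCAAT box CCAAT in 37.4% and the STAT site TTCNNNGAA in 8.30%. The TEAD site GGAATG was in 14.7%, the GATA site AGATAA in 11.2%, the AP-1 site TGANTCA in 7.81%, the NRF1 site GCGCATGCG in 1.75% and the YY1 site AAGATGGCG in 1.40%. The KLF site GGGTGTGGC was in 1.35%, the octamer ATGCAAAT in 1.74%, the SOX site CCTTTGTT in 1.56%, the Esrrb site TCAAGGTCA in 0.423% and the MEF2 site CTATTTATA in 0.429%. None of these letters overlap between motifs at the sites printed. A match describes the letters in the window and is not evidence of binding.

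More flank peaks gained than lost accessibility in the knockout cells. At a deposited FDR of 0.05, 486 of 3650 flank peaks were gained, or 13.3% (exact binomial 95% interval 12.2 to 14.5%), where 11.8% of all listed peaks were. Another 84 were lost, or 2.30% (1.84 to 2.84%), where 2.43% of all listed peaks were. Pooled over all strengths, the flanks were thus near the background of listed peaks, and slightly above it for gains. At a mean log2 concentration of 6 or more the shares lay further apart. There 34.2% of flank peaks were gained and 3.65% lost (1.59 to 7.07%), against 25.1% and 0.392% of all listed peaks. The median log2 fold was 0.49 over flank peaks and 0.45 over all listed peaks. Gained flank peaks had a median log2 fold of 1.24 and lost ones -1.82. Exact intervals here take peaks as independent and cover counting error only.

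**Figure D1:**
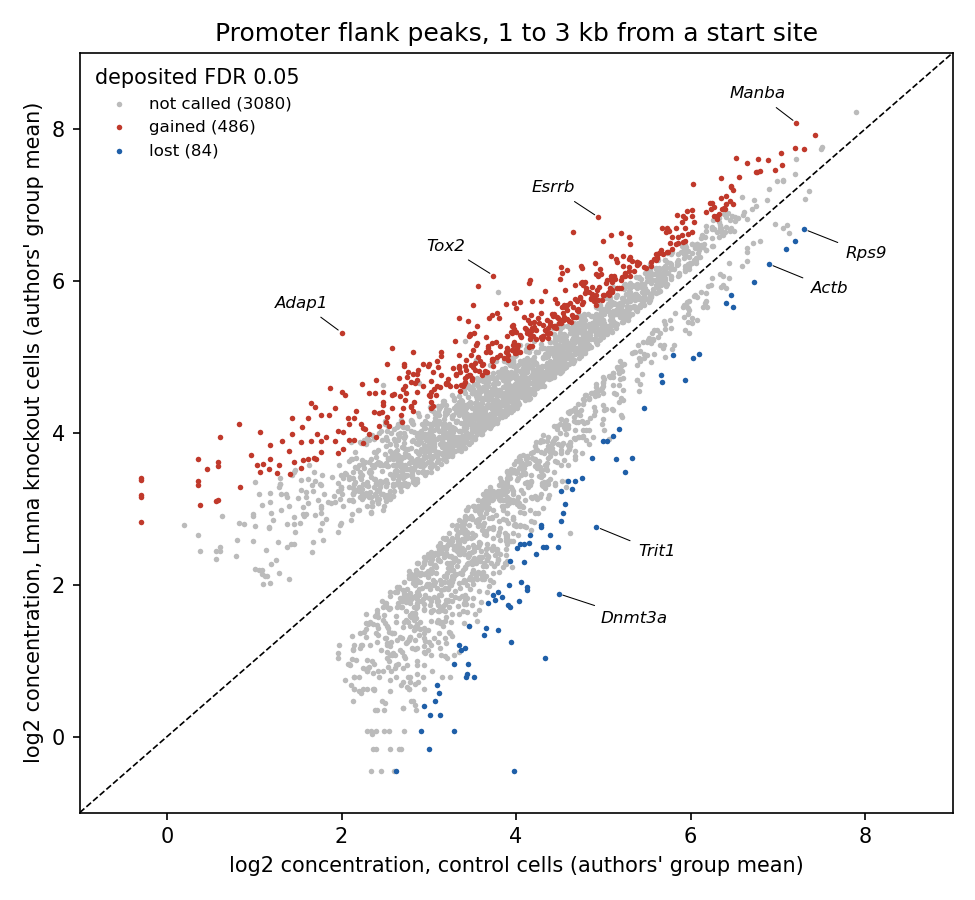
Deposited log2 concentration of each of the 3650 flank peaks in control (x) and Lmna knockout cells (y), with the dashed line marking equal values, 486 gained peaks in red and 84 lost peaks in blue. The empty band along the line is where unlisted peaks with small changes would lie; lost peaks are mostly weaker than gained ones, apart from a small group at the upper right that includes Rps9 and Actb.

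The split between gains and losses depends on where 0 is set. Among all listed peaks 66.7% had a positive log2 fold, but those below a log2 concentration of 3 had a median of -0.92. Folds were also centred on the listed median of 0.45 and retested with the standard errors implied by the deposited p-values. On that scale 110 flank peaks were gained (3.01%) and 306 lost (8.38%), against 2.29% and 8.33% of all listed peaks. Of the 486 gained peaks, 110 were still gained; centring lowers every fold, so lost peaks stay lost by construction.

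Distance and side made little difference. The 1 to 2 kb class had 242 gained peaks of 1759 (13.8%) and 38 lost (2.16%), and the 2 to 3 kb class 244 of 1891 (12.9%) and 46 lost (2.43%). The gained shares differed by 0.85 percentage points (95% interval -1.35 to 3.06), so a difference beyond that interval in either direction was not found and a smaller one could not be resolved. Upstream, 227 of 1749 peaks were gained (13.0%) and 39 lost (2.23%), and downstream 259 of 1901 (13.6%) and 45 lost (2.37%). Upstream minus downstream was -0.65 percentage points (-2.85 to 1.56). Median log2 folds were 0.49 in both distance classes, 0.51 upstream and 0.48 downstream.

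**Figure D2:**
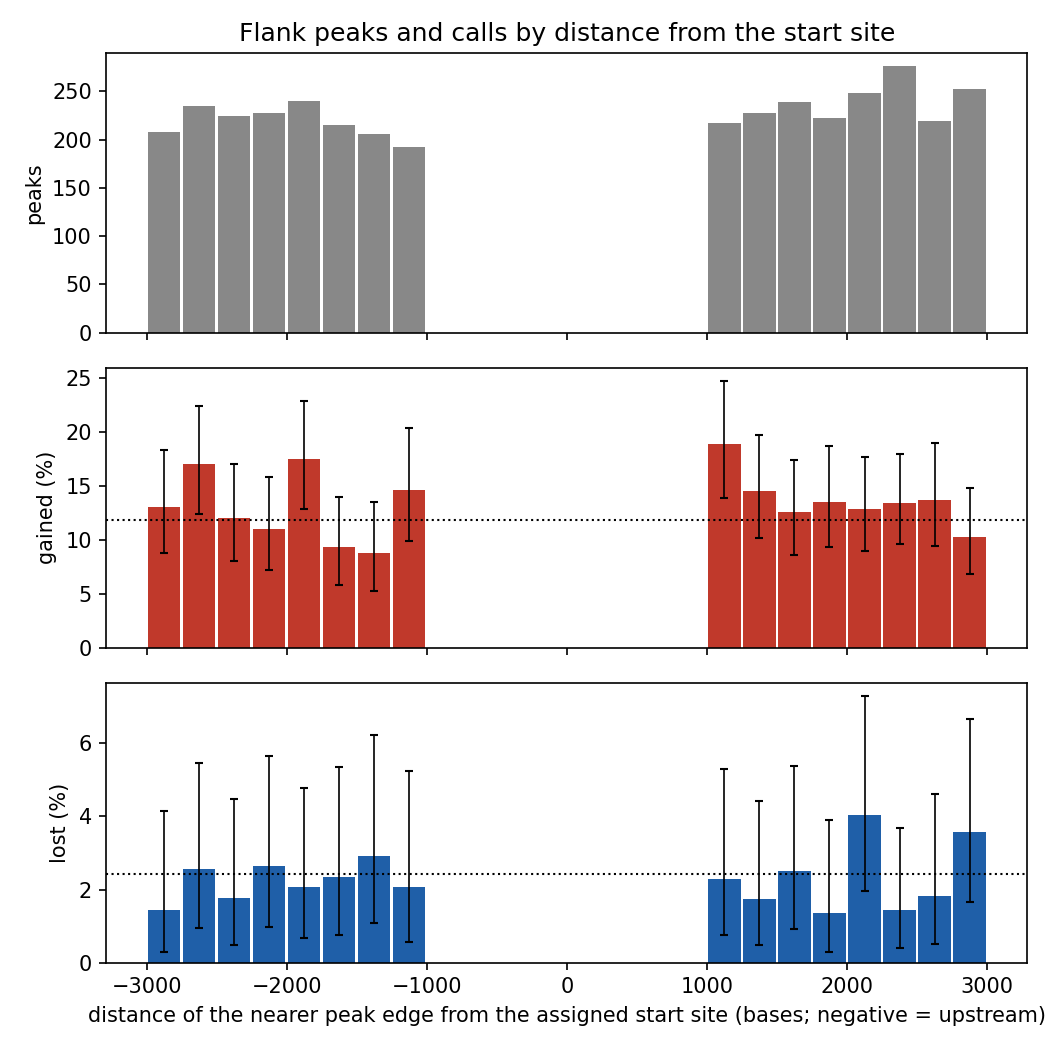
Number of flank peaks (top), percent gained (middle) and percent lost (bottom) in 16 windows of 250 bases by distance of the nearer peak edge from the assigned start, with exact 95% intervals and dotted lines at the shares of all listed peaks (11.8% and 2.43%). Gained shares ran from 8.74% at 1250 to 1500 bases upstream to 18.9% at 1000 to 1250 bases downstream, with no steady trend with distance.

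At the limits of the classes, the peak nearest below 1000 bases was that of Ccdc6, at -1000 (deposited log2 fold 0.50, FDR 0.555), and the nearest above was that of Acsl5, at -1001 (0.60, FDR 0.0356). Around 2000 bases these were Etl4 at -2000 (deposited log2 fold 2.01, FDR 0.0363) and Slc25a53 at 2001 (0.90, FDR 0.239). Around 3000 bases they were Itpr1 at -3000 (deposited log2 fold -0.96, FDR 0.0868) and, outside the class, Adgrl2 at 3001 (-0.60, FDR 0.536).

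Flank peaks were weaker than core promoter peaks and, at matched strength, were gained more often. The median control log2 concentration was 3.79 in flanks and 5.48 in cores, and the median width 537 and 1148 bases. Among peaks with a mean log2 concentration of 4 to 5, 15.7% of 1033 flank peaks were gained (exact 95% interval 13.5 to 18.0%) against 7.98% of 1880 core peaks (6.79 to 9.30%). From 5 to 6 the shares were 23.9% of 590 flank peaks (20.5 to 27.5%) and 9.21% of 3921 core peaks (8.32 to 10.2%). At 6 or more they were 34.2% of 219 (28.0 to 40.9%) and 17.7% of 4727 (16.7 to 18.9%). Distal intergenic peaks stood at 12.8%, 25.2% and 43.6% in these 3 ranges and intron peaks at 15.9%, 27.9% and 44.8%. Up to a log2 concentration of 6 the flanks therefore lay near distal and intron peaks, and above 6 between those and the cores. Below a log2 concentration of 4 the intervals of flank and core shares overlapped. The deposited FDR reaches its threshold at smaller folds in stronger peaks, which is why shares were compared within ranges of strength.

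**Figure D3:**
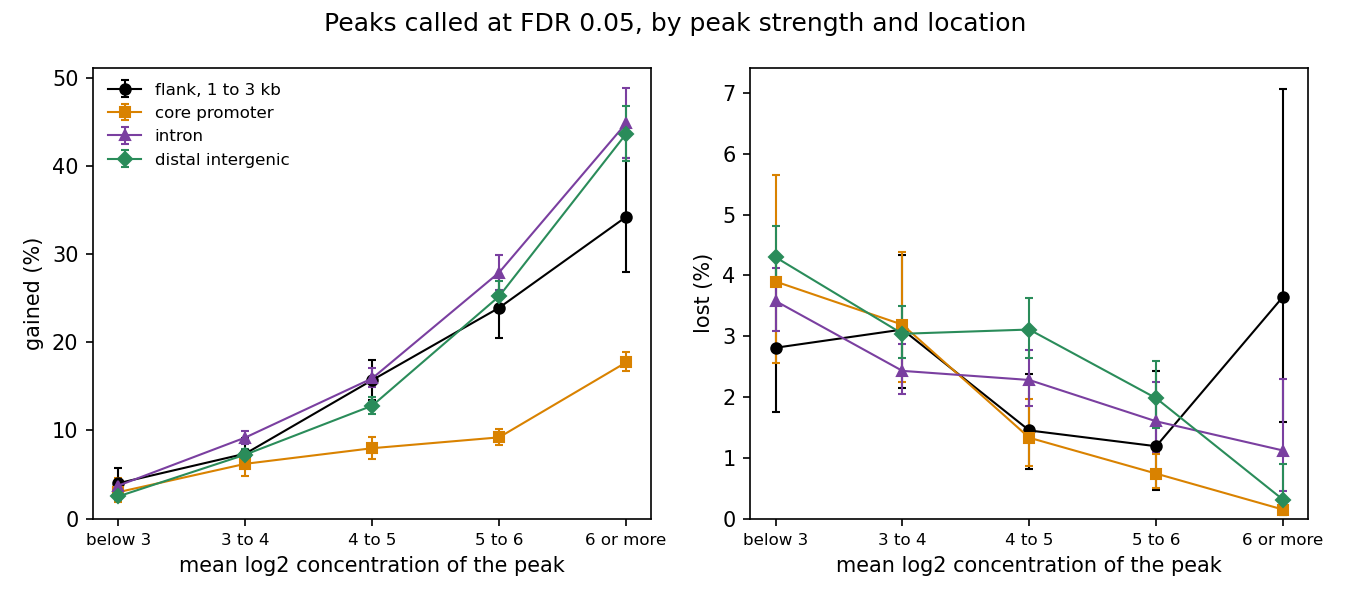
Percent of peaks gained (left) and lost (right) at the deposited FDR of 0.05, by mean log2 concentration, for flank (black), core promoter (orange), intron (purple) and distal intergenic peaks (green), with exact 95% intervals. Gained flank peaks follow the intron and distal classes up to a log2 concentration of 6 and stand above the core at 4 and over. At 6 or more, 3.65% of flank peaks were lost against 0.148% of core, 1.12% of intron and 0.311% of distal intergenic peaks.

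The gained peaks with the smallest FDR in each class and side gave 12 genes, most of which are described here. Upstream at 2 to 3 kb the first was Esrrb, an orphan nuclear receptor of the naive pluripotency network. Its peak at chr12:86501627-86502233 had deposited log2 concentrations of 4.94 in control and 6.84 in knockout cells, a 3.71-fold rise (log2 fold 1.89, implied SE 0.24, FDR 1.05e-12). The peak lies inside the RefSeq gene (chr12:86361117-86521628), since the start it was assigned to lies 143292 bases into it. The core peak of the same start, chr12:86504120-86504597, rose as well in the deposited table, from 3.95 to 6.20 (log2 fold 2.25, FDR 1.85e-09).

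In the same class the peak of Tox2, an HMG-box factor, rose from a deposited 3.74 to 6.07 (log2 fold 2.34, implied SE 0.33, FDR 3.47e-10). That of Ssr2, a subunit of the translocon-associated complex of the endoplasmic reticulum, rose from 6.52 to 7.62 in the deposited table (log2 fold 1.10, implied SE 0.17, FDR 8.48e-09), with its core at 1.35 (FDR 6.20e-06). The Ssr2 flank peak (chr3:88571853-88573298) lies near the Lmna locus, whose own peaks were called in both directions. One of them, chr3:88514529-88515460, rose too (deposited log2 fold 1.52, FDR 9.76e-05). Whether the Ssr2 gain relates to the edited locus was not tested. Upstream at 1 to 2 kb, Msln, which encodes the surface protein mesothelin, rose from a deposited 4.65 to 6.65 (log2 fold 2.00, FDR 1.65e-09). Sulf2, an extracellular sulfatase that trims heparan sulfate, rose from 5.09 to 6.61 (deposited log2 fold 1.52, FDR 1.45e-08), and Nlrc4, an inflammasome protein, from 3.51 to 5.68 (deposited log2 fold 2.17, FDR 1.47e-07). The cores of Sulf2 and Nlrc4 did not pass, with deposited log2 folds of 0.51 (FDR 0.227) and 0.28 (FDR 0.575). The Nlrc4 flank peak was assigned to a start 10938 bases into its gene, away from that core.

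Downstream at 2 to 3 kb, Adap1, whose product is a GTPase-activating protein for ARF6 that binds phosphoinositides, had the steepest rise of the 12. Its peak at chr5:139300274-139300809 went from a deposited log2 concentration of 2.00 to 5.32, a 9.99-fold rise (log2 fold 3.32, implied SE 0.49, FDR 3.49e-09). The core of Adap1, whose window is printed above, rose by less, from 5.19 to 6.39 (deposited log2 fold 1.20, FDR 8.92e-05). It belongs to another start, since the start of the flank peak lies 22613 bases into the gene. Tns3, a focal adhesion protein, rose from 6.64 to 7.55 at its flank (deposited log2 fold 0.91, FDR 7.92e-07). Downstream at 1 to 2 kb, Manba, the lysosomal beta-mannosidase, rose from 7.21 to 8.08 (deposited log2 fold 0.87, FDR 3.93e-08). Another Manba flank peak, upstream of its start, did not pass (deposited log2 fold -0.67, FDR 0.119). Agps, an enzyme of ether lipid synthesis in peroxisomes, rose from a deposited 4.52 to 6.18 (log2 fold 1.66, FDR 3.86e-07). Pde6a, the rod photoreceptor phosphodiesterase subunit, rose from 3.35 to 5.51 (deposited log2 fold 2.16, FDR 2.31e-06). The assigned starts of Tns3, Manba, Agps and Pde6a lay 85637, 59045, 36206 and 54549 bases into their genes. The 12 gained peaks were still gained after centring.

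Lost flank peaks included 12 more genes by the same rule. Upstream at 1 to 2 kb, Trit1, a tRNA-modifying enzyme, fell from a deposited 4.92 to 2.76 (log2 fold -2.16, implied SE 0.45, FDR 0.000101). Another Trit1 flank peak did not pass (deposited log2 fold 1.57, FDR 0.0578). In the same class Cd5, a lymphocyte surface receptor, fell from a deposited 5.25 to 3.49 (log2 fold -1.76, FDR 0.000538). Emb, which encodes the membrane protein embigin, fell from 7.19 to 6.53 (deposited log2 fold -0.66, FDR 0.00327) over a broad peak of 2987 bases. Upstream at 2 to 3 kb, Sec31a, a COPII coat protein, fell from 5.94 to 4.70 (deposited log2 fold -1.25, FDR 0.000319). The claudin family gene Cldn34b3 had a deposited log2 fold of -1.38 (FDR 0.0192), and the centrosome gene Cspp1 -1.11 (FDR 0.0266). Downstream at 1 to 2 kb they were Ppan and Rps9, a ribosome biogenesis factor and a ribosomal protein, and Gdi2, a regulator of Rab GTPases (deposited log2 fold -1.13, FDR 0.0183). Downstream at 2 to 3 kb they were the small nucleolar RNA genes Snord88a and Snord72 and Mat2a, which makes S-adenosylmethionine. The peak of Snord88a fell from 5.33 to 3.67 (deposited log2 fold -1.66, FDR 0.000309). The assigned starts of Cd5, Cspp1 and Gdi2 lay 16952, 49631 and 15964 bases into their genes.

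Strong peaks that were lost downstream of a start lay mostly beyond the 3′ end of their assigned transcript. This split was chosen after the values were seen and is given as a description. Of 1901 downstream peaks, 1356 lay inside the assigned transcript, 140 across its end and 405 beyond it. Among those with a mean log2 concentration of at least 5, 0 of 275 inside were lost, which allows a share of up to 1.33% (exact 95% interval), 1 of 51 across the end was, and 9 of 116 beyond it were (7.76%, 3.61 to 14.2%). Upstream of a start, 5 of 367 peaks of that strength were lost (1.36%), and over all listed peaks of that strength 0.923% were. Gained shares were 30.5% inside (25.2 to 36.4%) and 17.2% beyond (10.9 to 25.4%), against 21.4% over all listed peaks of that strength, which lies within the second interval. Log2 folds were above 0 in 95.3% of the peaks inside and in 60.3% of those beyond.

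**Figure D4:**
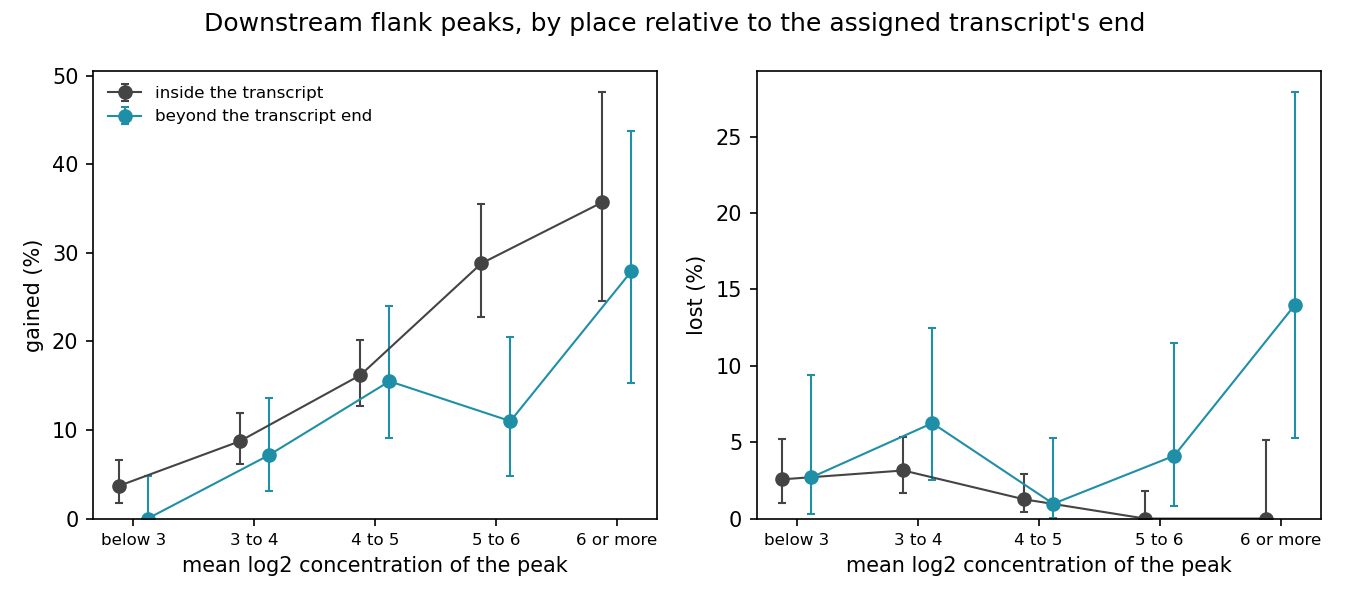
Percent of downstream flank peaks gained (left) and lost (right) by mean log2 concentration, for peaks inside the assigned transcript (grey) and beyond its 3′ end (blue), with exact 95% intervals; the 140 peaks across the end are left out. At a log2 concentration of 6 or more, 0 of 70 peaks inside and 6 of 43 peaks beyond the end were lost.

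The 10 lost downstream peaks of that strength can be placed on RefSeq genes. At Actb, the cytoplasmic beta-actin gene, the peak begins 129 bases past the gene's 3′ end (chr5:142901589-142902986), and fell from a deposited 6.90 to 6.22 (log2 fold -0.68, implied SE 0.19, FDR 0.00658). The Actb core rose at the same time, from 6.22 to 6.89 in the deposited table (log2 fold 0.67, FDR 0.0097). At Rps9 the peak begins 64 bases past the end and fell from 7.30 to 6.68 (deposited log2 fold -0.62, FDR 0.00601). At Rpl15, another ribosomal protein gene, it begins 264 bases past the end and fell from 5.47 to 4.33 (deposited log2 fold -1.14, FDR 0.00692). The peak assigned to Snord72, which lies within the RefSeq span of the ribosomal protein gene Rpl37, begins 2046 bases past the end of Rpl37 and fell from 6.48 to 5.65 (deposited log2 fold -0.83, FDR 0.00384).

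At Mat2a the peak spans the gene's end (chr6:72431124-72432901) and fell from a deposited 7.09 to 6.42 (log2 fold -0.68, FDR 0.00365). The peak over the Mat2a start, which the table assigns to Particl, rose from 6.29 to 6.80 (deposited log2 fold 0.51, FDR 0.0468), and this is the start whose window is printed above. At Ppan the peak also spans the end and fell from 6.72 to 5.98 (deposited log2 fold -0.74, FDR 0.00287). The other peaks across a gene end were those of Flot1, a membrane raft protein (deposited log2 fold -1.0, FDR 0.0142), Cbarp, a calcium channel regulator (-0.69, FDR 0.0309), and Mark2, a microtubule affinity regulating kinase (-0.78, FDR 0.0368). The remaining peak, at the long noncoding RNA gene 3930402G23Rik, lay inside its gene (deposited log2 fold -0.64, FDR 0.0295). In all, 5 of the 10 crossed a RefSeq gene end, 4 lay past one and 1 lay inside. By the assigned transcript, 9 of the 10 lay beyond its end, so the placements differ. Only lost peaks were placed on RefSeq genes, so no share over the other strong downstream peaks stands beside these counts. Most strong peaks beyond the transcript end were not lost: of 116, 20 were gained, 9 lost and 87 not called. The peak of Dppa5a, described below, lay past the end of its gene and was gained. In peaks the table labels as 3′ UTR, 2 of 303 of that strength were lost (0.66%), and in those it labels as downstream of a gene 2 of 131 (1.53%).

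The core and the flank of the same gene could be set side by side at 1781 genes, taking the peak of smallest p in each, which need not belong to the same start. The flank was the weaker in control cells at 78.6% of them. The median of flank minus core log2 fold was 0.07 (95% interval 0.03 to 0.11), with quartiles of -0.83 and 0.58. That interval takes genes as independent and does not cover the spread between libraries. It also rests on listed peaks only, which leave out small changes. Of 312 genes with a gained flank, 58 had a gained core (18.6%), 6 a lost core and 248 a core that was not called. A gained core was found beside 14.6% of flanks that were not called and at 15.1% of all 1781 genes, and a lost core at 1.35%. Their cores had a median log2 fold of 0.44, the same as the cores beside the 1432 flanks that were not called. Of 37 genes with a lost flank, 3 had a lost core (Dnmt3a, Sntg1 and St6gal1), 2 a gained core (Actb and Mark2) and 32 a core that was not called, with a median core log2 fold of 0.36. Among genes with both gained, Mras, a Ras-family GTPase, had deposited log2 folds of 1.39 at the flank (FDR 0.0188) and 2.99 at the core (FDR 3.31e-15).

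**Figure D5:**
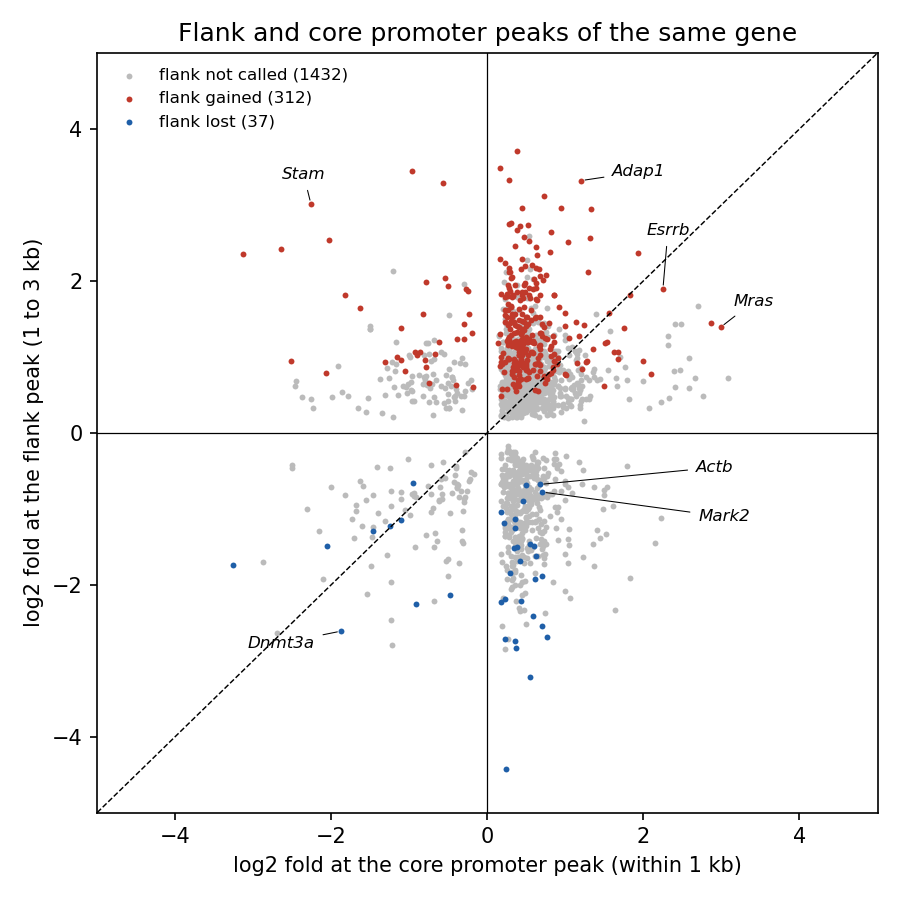
Deposited log2 fold of the core promoter peak (x) and the flank peak (y) of the same gene for 1781 genes, coloured by the call of the flank: 312 gained (red), 37 lost (blue) and 1432 not called (grey). Red points stack above a narrow range of core folds near 0.44, and 28 of the 37 blue points lie to the right of 0, where the core had a positive fold.

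The 6 genes with a gained flank and a lost core included 1700113B09Rik, Mycl, Rsf1os1, Slco1a5 and Stam. At Stam, an adaptor of endosomal sorting, the flank rose from a deposited 0.35 to 3.36 (log2 fold 3.01, FDR 0.0135) while the peak near a start fell from 3.16 to 0.90 (log2 fold -2.26, FDR 0.0436). At Mycl, a MYC-family factor, the deposited log2 folds were 0.93 (FDR 0.0402) and -1.31 (FDR 0.0471). Several of these peaks are weak and their FDR lies close to the threshold.

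At 261 genes flank peaks lay upstream of one start and downstream of the same or another start. None of them was called in opposite directions, and 9 were gained on both sides, among them A930015D03Rik, Arhgef2, F11r, Neat1, Nfatc2ip, Pde6a, Slc7a5 and Tns1. These 9 were 23.7% of the 38 genes gained upstream, where 19.9% of the 261 were gained downstream, so gains on both sides were near the share over all these genes. A further 29 genes had a gained peak upstream alone and 43 downstream alone. A lost peak lay upstream alone at 5 genes and downstream alone at 3. With so few losses, the absence of opposite pairs does not show that the sides agree. At Neat1, the long noncoding RNA that scaffolds paraspeckles, the upstream peak rose from a deposited 5.54 to 6.25 (log2 fold 0.71, FDR 0.0355) and the downstream peak from 6.77 to 7.61 (log2 fold 0.84, FDR 9.92e-05). At Slc7a5, an amino acid transporter, the deposited log2 folds were 1.04 upstream (FDR 0.00607) and 2.06 downstream (FDR 0.00166). At F11r, a tight junction adhesion molecule, they were 1.87 (FDR 0.00365) and 1.46 (FDR 0.00384). The peaks of Arhgef2, like that of Ssr2, lie near the Lmna locus on chromosome 3.

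The assigned start was often not the main start of the gene. Of 2765 flank peaks whose gene is in the RefSeq promoter table, 1589 (57.5%) were assigned to a start more than 500 bases from any RefSeq start of that gene, at a median of 17142 bases. Such peaks were gained in 14.3% of cases (12.6 to 16.1%) and lost in 2.08%, and the 1176 peaks beside a RefSeq start in 12.2% (10.4 to 14.3%) and 2.30%. Of 1749 upstream peaks, 902 (51.6%) overlapped the RefSeq body of their own gene, as at Esrrb and Tox2, so that upstream here often means within the gene. Of those 902, 13.5% were gained and 1.88% lost, and of the 603 upstream peaks over no RefSeq gene 12.1% were gained and 3.15% lost.

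Where the flank lay beside a RefSeq start, the sequence of that start could be described. Observed over expected CpG ratios above 0.6 were found in 50.7% of the 144 windows beside gained flanks, 33.3% of the 27 beside lost flanks and 37.8% of the 985 beside flanks that were not called, against 35.8% of all RefSeq windows. The CTCF core letters were in 13.2%, 14.8% and 9.24% of the 3 sets, and the E-box letters in 10.4%, 7.41% and 7.21%. The AP-1 letters were in 4.86%, 11.1% and 8.22%, and the ETS letters in 6.94%, 7.41% and 8.93%. The YY1 letters were in 1.39%, 11.1% and 1.62%. These are some of the 15 motifs searched. With 144 windows beside gained flanks and 27 beside lost ones, these motif shares rest on few windows. Whether they differ between the sets was not tested.

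Among the gene lists, that of naive pluripotency had the most gained flank peaks. The list of 28 genes had 11 flank peaks in 9 genes, of which 4 were gained and 0 lost, where 13.3% of all flank peaks were gained; their median log2 fold was 0.72 against 0.49 over all flanks. The 4 gained peaks were among 7 with a mean log2 concentration of at least 5, a strength at which 26.7% of all flank peaks were gained. Medians were also above 0.49 in the fibroblast (0.62), cardiac transcription factor (0.56), neural (0.55) and endothelial (0.52) lists. Besides Esrrb, the gained peaks were those of Fgf4, a growth factor of the inner cell mass, from a deposited 5.22 to 6.33 (log2 fold 1.10, FDR 0.000513), and Sall4, a zinc finger factor, from 5.04 to 6.01 (log2 fold 0.97, FDR 0.00588). The fourth was Dppa5a, a gene active in pluripotent cells, where a peak past the 3′ end rose from 6.48 to 7.19 (deposited log2 fold 0.72, FDR 0.0014). Of these 4, Esrrb alone was still gained after centring; there the adjusted p was 0.0811 at Fgf4, 0.225 at Sall4 and 0.405 at Dppa5a. Those that did not pass included Klf2 (deposited log2 fold 0.63, FDR 0.0526), Tcl1 (0.71, FDR 0.0652) and Lifr, the receptor for leukemia inhibitory factor (-1.18, FDR 0.163).

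The other lists held few peaks, and their counts stand against 13.3% gained and 2.30% lost over all flank peaks. Of 8 flank peaks of formative and primed genes, 0 were gained and 1 was lost. It lies inside Dnmt3a, which encodes a de novo DNA methyltransferase, and fell from a deposited 4.49 to 1.88 (log2 fold -2.61, implied SE 0.60, FDR 0.000561). A peak near a further Dnmt3a start fell too (deposited log2 fold -1.87, FDR 0.0293). The stronger core peak chr12:3889930-3892458 had a deposited log2 fold of -0.20 (FDR 0.57) and the other flank peak -0.48 (FDR 0.599), and neither passed. Of 10 flank peaks of cardiac transcription factors, 1 was gained, at Tead1, the Hippo pathway factor (deposited log2 fold 1.12, FDR 0.000495). Its adjusted p was 0.0762 after centring. Further Tead1 flank peaks did not pass, with deposited log2 folds of -0.40 (FDR 0.425) and -0.99 (FDR 0.582). The peak near Nkx2-5 did not pass either (deposited log2 fold 0.67, FDR 0.266). Of 5 peaks of cardiac structural genes, 1 was lost, at Tpm1, a tropomyosin (deposited log2 fold -1.93, FDR 0.0184). This peak was weak, going from 3.92 to 1.99, whereas the stronger Tpm1 core had a deposited log2 fold of 0.61 (FDR 0.0578). Endothelial genes had 6 flank peaks, with 0 called and deposited log2 folds from -1.97 to 1.34, and genes of the lamina and nuclear envelope also 6 with 0 called, from -0.42 to 1.42.

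Of 5 peaks of fibroblast genes 1 was lost, at the mesenchymal homeobox gene Prrx1 (deposited log2 fold -2.23, FDR 0.0416). That peak went from 3.37 to 1.14, and the stronger Prrx1 core did not pass (deposited log2 fold 0.18, FDR 0.628). Endoderm genes had 3 peaks, of which 1, at the laminin gene Lama1, was gained (deposited log2 fold 2.02, FDR 2e-05). Another Lama1 flank peak did not pass (deposited log2 fold -1.38, FDR 0.261). The housekeeping list held the lost peak of Actb given above. The smooth muscle and neural lists had 1 peak each, neither called, and the 2-cell-like list had 0. Of 15 flank peaks assigned to small nucleolar RNA genes 0 were gained and 2 lost, and of 86 assigned to microRNA genes 6 were gained and 3 lost. The exact intervals of these shares include the 13.3% gained and 2.30% lost over all flank peaks.

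On the deposited scale, gained flank peaks outnumbered lost ones on all 20 chromosomes, on chromosome X by only 4 to 3. After centring, more flank peaks were lost than gained over all chromosomes together (306 against 110). The gained share ran from 5.97% on chromosome X (4 of 67 peaks, exact 95% interval 1.65 to 14.6%) to 20.7% on chromosome 19 (23 of 111, 13.6 to 29.5%).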

How the data were processed

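Per the labels, ATAC-seq was run on 3 control and 3 Lmna knockout libraries. The submitters' processing notes, which give neither order nor role, say that the authors used bedtools 2.28.0, Bowtie2, ChIPseeker, deepTools, DESeq2, DiffBind, MACS2, Picard 1.119, SAMtools and Trimmomatic 0.39, with the build mm10. The sources used here do not give their settings, the normalization, any shift of reads for Tn5 or any pooling for peak calling. The log2 concentrations and log2 folds are the authors' deposited values, and each fold equalled knockout minus control within 0.01. The p-values and FDR are the authors' deposited values. The deposited table, sorted by p, lists 65535 peaks; FDR, rank and p together imply 99078 tested, so 33543, with p above 0.422, were not analysed here, and medians leave out small changes.

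A peak was called gained or lost when its deposited FDR was at most 0.05. Intervals of shares are exact binomial at 95%; those of differences between shares are normal approximations, and that of the median uses order statistics. Implied standard errors take the deposited p as a normal test. The retest after centring held unlisted peaks at a p of 1 and was tested on simulated data. In the simulation every peak was listed and the offset was known. The effect of the unlisted peaks, and of taking the listed median as the centre, was therefore not tested. No test between libraries was run, because values per library are not used here; the planned branch for a table of the authors' comparison was followed. Named genes are the 3 called peaks of smallest FDR per class, side and direction, at or above the median concentration of flank peaks (4.01), without predicted names, plus called members of 12 gene lists and the boundary peaks; a few of these are not reported here. Peaks at 3′ ends, opposite-direction pairs and windows were chosen after their values were seen. The members and lists were chosen with earlier results of these data known. A genome sequence was not used, so RefSeq promoter windows (GRCm38.p6) replaced the planned peak sequences. Computations used matplotlib 3.10.9, SciPy 1.17.1, pandas 2.3.3 and numpy 2.4.6 under Python 3.11.15.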

Additional observations from a re-analysis of the deposited data

How the results depend on the processing

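No paired analysis was possible because only group means were at hand; leaving out replicates and a count model of the libraries were likewise not run. At an FDR of 0.01, 226 flank peaks were gained and 25 lost (90.0% gained), and 17 genes had both flank and core gained in place of 58. Centring and retesting gave 110 gained and 306 lost, or 26.4% gained in place of 85.3%. A log2 fold of at least 1 gave 81.9% gained. Peaks at or above the median concentration gave 29 lost in place of 84, 92.9% gained, and a median flank minus core of 0.12. Keeping flanks within 500 bases of a RefSeq start, an alternative chosen with the data seen, left 144 gained and 27 lost because fewer peaks entered. Including distal chromosome 14 raised the genes with both gained to 91, and pairing by the same transcript start, also chosen later, gave 12 of 556. The cause of the other shifts was not tested. The differences between distance classes and between sides stayed within their main 95% intervals under the alternatives run, from -2.66 to 0.36 percentage points for upstream minus downstream. Of 34 named peaks, 5 were no longer called after centring, among them Tead1, Fgf4, Dppa5a and Sall4. With 3 libraries a group and no values per library, depth and the spread between libraries limit every value here in a way that could not be measured.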
